A study of Mus musculus with 12 samples.

Results

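The circadian clock genes Per1, Per2, Per3, Cry1, Cry2, Clock, Npas2, Nr1d1, Dbp and Noct were followed in the heart and cerebrum of mice given phosphatidylserine (PS), a phospholipid of cell membranes, or medium-chain triglycerides (MCT), the vehicle. A gene was taken where the array held a transcript cluster, the set of probes that together measure 1 transcript, annotated to that gene symbol alone. Of the 10 genes listed, 8 had such a cluster, out of 18820 symbols on the array, each of the 8 with 1 cluster. Nr1d1 and Dbp were measured only by clusters that also carry the symbol of another gene, and they were left out. The 4 groups, with 3 arrays each, were heart of PS mice, heart of MCT mice, cerebrum of PS mice and cerebrum of MCT mice. All animals were labelled as C57BL/6J carrying the humanized knock-in allele IKBKAP FDloxP/+, made to model familial dysautonomia (FD), a disorder of sensory and autonomic neurons. By that label the MCT controls carry the allele too. Gavage began at 4 months of age and was given every other day for 3 months, with PS at 200 mg/kg in 100 microliter or MCT in the same volume. The labels conflict on 2 points: the series design counts FD mice only, but the growth protocol lists both FD and wild-type animals, and the source names state the PS dose per day. The genotype of the MCT controls is therefore not settled. If they were wild type, genotype and treatment could not be told apart. The labels give neither sex nor the time of day at which tissue was taken. The question put by the series is whether PS changes gene expression in FD mice.

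The clock of mammalian cells is a loop of transcription with a daily period. CLOCK, or its relative NPAS2, pairs with BMAL1, the product of Arntl, and the pair activates genes through E-boxes, among them the Period (Per) and Cryptochrome (Cry) genes. PER and CRY proteins then repress that pair, while D-box factors such as DBP, TEF and HLF and the REV-ERB and ROR receptors, which act on ROR elements, set the phase of other genes, so that Arntl and the Per genes peak at opposite times of day. Heart and brain both run this clock, and Per1 and Per2 are also induced acutely by hormones and by signals through cAMP.

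Promoters are printed for the 3 of the 9 genes searched that had an E-box or D-box close to a start site, and for Noct, which passed the test in heart. The sequences are RefSeq's, on GRCm38.p6, and cover the 250 bases upstream of the annotated start. Of the 10 listed genes 9 had a promoter entry, with 12 start sites. Per2 had none, so its promoter was not searched. Capitals mark the E-box CACGTG and the D-box TTATGTAA. Per1 is shown at its first start site (chr11:69098699-69098948, plus strand), Per3 at chr4:151044666-151044915 (minus strand), Cry1 at chr10:85185055-85185304 (minus strand) and Noct at chr3:51224197-51224446 (plus strand).
Per1: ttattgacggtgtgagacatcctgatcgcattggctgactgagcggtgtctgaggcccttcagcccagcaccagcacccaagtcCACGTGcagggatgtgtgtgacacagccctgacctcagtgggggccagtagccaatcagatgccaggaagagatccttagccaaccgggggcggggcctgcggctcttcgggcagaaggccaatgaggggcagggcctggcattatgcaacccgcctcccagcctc
Per3: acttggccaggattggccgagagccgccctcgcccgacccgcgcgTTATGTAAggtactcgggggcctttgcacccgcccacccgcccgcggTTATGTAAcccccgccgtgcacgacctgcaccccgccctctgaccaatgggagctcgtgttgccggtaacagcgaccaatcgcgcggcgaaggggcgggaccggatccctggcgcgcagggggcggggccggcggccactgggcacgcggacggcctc
Cry1: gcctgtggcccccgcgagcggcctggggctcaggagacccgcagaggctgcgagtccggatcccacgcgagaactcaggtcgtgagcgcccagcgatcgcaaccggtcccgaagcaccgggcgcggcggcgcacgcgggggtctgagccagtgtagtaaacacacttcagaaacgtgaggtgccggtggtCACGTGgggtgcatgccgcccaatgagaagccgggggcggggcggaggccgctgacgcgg
Noct: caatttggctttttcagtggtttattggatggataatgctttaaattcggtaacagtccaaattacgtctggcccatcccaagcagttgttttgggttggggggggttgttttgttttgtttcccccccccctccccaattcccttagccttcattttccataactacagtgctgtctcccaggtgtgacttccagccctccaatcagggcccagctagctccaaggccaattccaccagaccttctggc
The E-box begins 166 bases before the start of Per1 and 60 bases before that of Cry1, and the D-boxes of Per3 begin at 205 and 158 bases. Of the 12 start sites, 2 have an E-box and 1 has D-boxes in this window. On either strand, 6.02% of 32851 mouse promoter windows of the same length hold the E-box and 0.819% the D-box. The core of the ROR element, AGGTCA, is in 14% of windows and a core of the cAMP response element, TGACG, in 17.8%; the Per1 window holds both, at 137 and 246 bases, the Cry1 window holds TGACG at 8 bases, and no motif overlapped another. The Noct window holds none of the 4. A match describes the letters only, and their absence from this window says nothing of a factor's action on the gene.

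Expression values are log2 intensities as deposited, so a difference of 1 is a doubling, and levels of different genes cannot be compared because each has its own probes. Array medians lay between 4.89 and 5. The tissues matched their labels: the mean of 8 neuronal markers was 4.62 to 4.94 in heart and 10.76 to 10.98 in cerebrum, and that of the 7 measured cardiomyocyte markers was 11.9 to 12.2 in heart and 5.41 to 5.61 in cerebrum. Several other transcripts moved with treatment, and their part in the clock results was not tested except where a value is given. Xist, the noncoding RNA that coats the silenced X chromosome in female cells, was 8.92 to 9.13 in PS hearts and 3.40 to 4.03 in MCT hearts, so in heart treatment and sex-linked expression cannot be told apart. In cerebrum it was 9.55, 3.32 and 9.86 in PS arrays 1, 2 and 3, against 3.34 to 3.77 in MCT arrays. In whole tissue, fewer cells of a type and less RNA per cell cannot be told apart.

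In heart, the Period genes Per1 and Per2 and the output gene Noct were higher in every PS array than in every MCT array, and Noct passed the test. Per1, the first of the Period repressors, was at 9.34, 9.03 and 9.04 in PS hearts 1 to 3, against 7.44, 8.20 and 8.79 in MCT hearts 1 to 3. Per2, a repressor required for a stable rhythm, was at 7.04, 6.86 and 7.06 in PS hearts, against 5.47, 5.79 and 6.31 in MCT hearts. The PS hearts lay close together for both genes, whereas the MCT hearts were spread out, with array 1 lowest and array 3 nearest to the PS hearts. Noct encodes nocturnin, a rhythmic output enzyme related to mRNA deadenylases, and was at 8.58, 8.36 and 8.66 in PS hearts, against 7.19, 7.34 and 7.67 in MCT hearts. Every PS heart lay above every MCT heart. The log2 difference of Noct was 1.13 (SE 0.158), 2.19-fold, with an adjusted p of 0.0337 by limma over 12736 transcript clusters. Per2 differed by 1.13 (SE 0.207, adjusted p = 0.0943) and Per1 by 0.99 (SE 0.305, adjusted p = 0.138), neither past the threshold of 0.05.

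**Figure D1:**
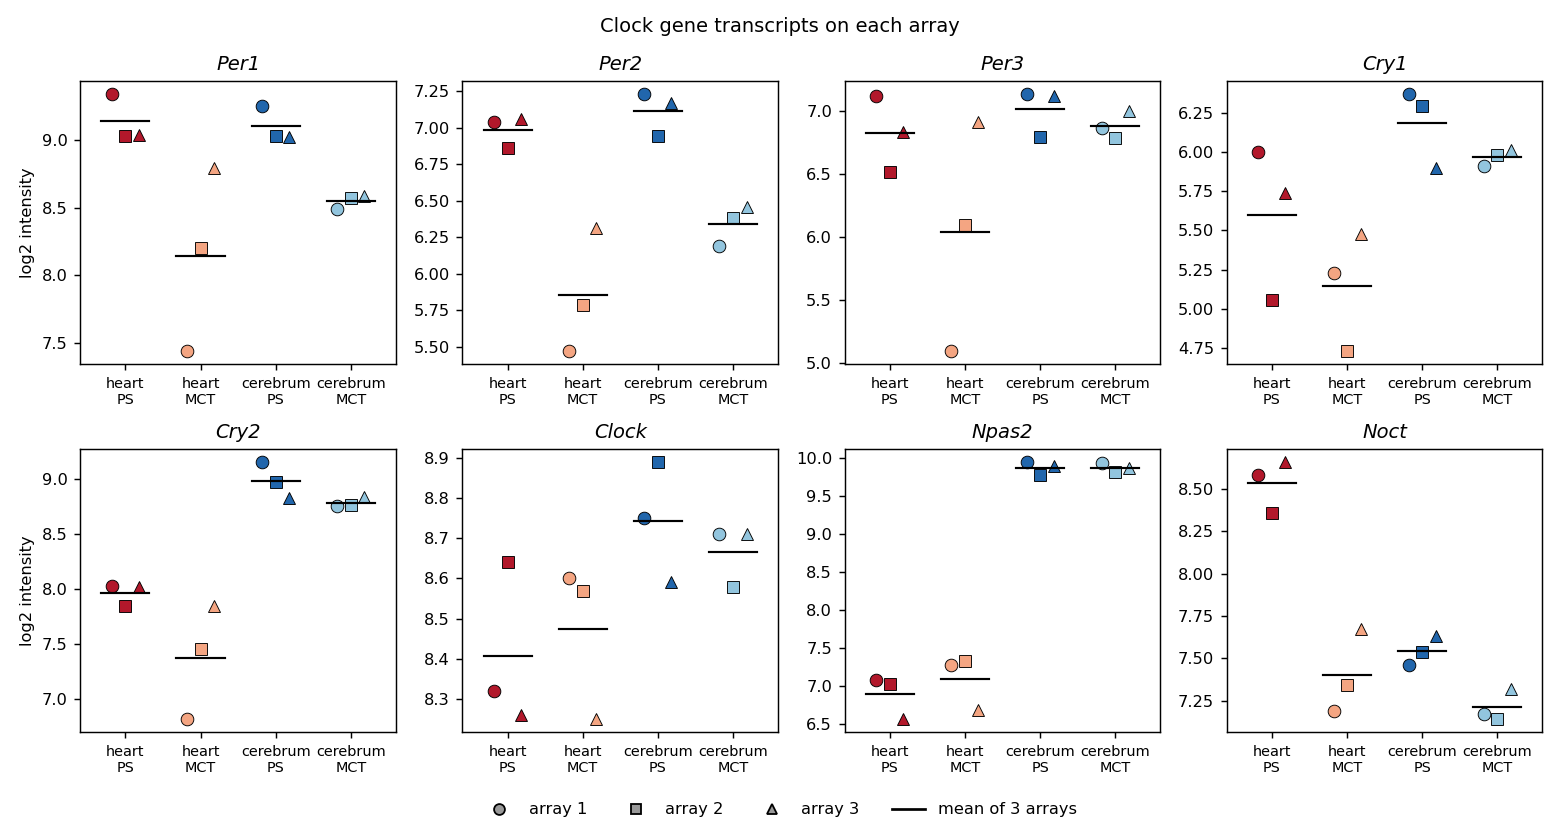
Log2 intensity (y axis, its own range in each panel) of the 8 clock genes on each of the 12 arrays, by group (x axis), with symbols for arrays 1, 2 and 3 of a group and a line at the mean of 3 arrays. Per1, Per2 and Noct are higher on every PS array than on every MCT array of the same tissue, and for Per1, Per2, Per3 and Cry2 the MCT hearts are spread wider than the PS hearts.

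The other Period and Cryptochrome genes had higher means in PS hearts too, but their arrays overlapped or touched and none passed the test. Per3, the third Period gene, was at 7.12, 6.52 and 6.84 in PS hearts, against 5.09, 6.10 and 6.92 in MCT hearts. Its highest MCT array exceeded 2 of the 3 PS arrays, and the difference of 0.79 (SE 0.409) had an adjusted p of 0.27. Cry2, a Cryptochrome repressor, was at 8.03, 7.85 and 8.02 in PS hearts, against 6.82, 7.46 and 7.85 in MCT hearts. MCT heart 3 equalled the lowest PS array, and the difference was 0.59 (SE 0.241, adjusted p = 0.194). Cry1, the other Cryptochrome, was at 6.00, 5.06 and 5.74 in PS hearts, against 5.23, 4.73 and 5.48 in MCT hearts, and overlapped (0.45, SE 0.274, adjusted p = 0.331).

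The activators had means close to or below those of MCT hearts. Clock was at 8.32, 8.64 and 8.26 in PS hearts, against 8.60, 8.57 and 8.25 in MCT hearts, and Npas2 at 7.08, 7.02 and 6.56 in PS hearts, against 7.28, 7.33 and 6.68 in MCT hearts. Both groups overlapped for both genes. The differences were -0.07 for Clock (95% interval -0.43 to 0.29, adjusted p = 0.808) and -0.21 for Npas2 (-0.71 to 0.29, adjusted p = 0.557).

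Of the 8 genes, 1 rose in PS hearts and 0 fell, where 0.157% of all transcript clusters tested were called higher; 4 had an unadjusted p under 0.05, as did 3015 of the 12736. In 3 of 8 every PS array lay above every MCT array, which held for 17.2% of all clusters. The median difference of the 8 was 0.69, against 0.06 over all clusters. The size of the Noct difference stayed at 1.03 to 1.27 when each array was left out in turn, and its call did not hold throughout. Without MCT heart 3 Noct had an adjusted p of 0.00445, and Per1 (1.32), Per2 (1.36), Per3 (1.23) and Cry2 (0.83) also passed, at 0.00444 to 0.0318. That run called 3416 of all 12737 clusters, against 42 with all 6 arrays, so calls rose among all transcripts. Without any other array of the 6 none of the 8 passed, Noct stood at 0.109 to 0.221, and 4 to 12 of all clusters were called. After quantile normalization Noct differed by 1.04 (adjusted p = 0.0586). Endothelial markers and glucocorticoid-responsive genes also separated the hearts: the mean of 7 endothelial markers was 8.99, 9.23 and 9.09 in PS hearts and 8.18, 8.50 and 8.77 in MCT hearts, and that of 13 glucocorticoid-responsive genes, a list without Per1, was 9.31, 9.55 and 9.43 in PS hearts and 8.34, 8.52 and 8.61 in MCT hearts.

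In cerebrum, Per1 and Per2 rose in PS mice, and Noct was again higher in every PS array without passing the test. Per2 was at 7.23, 6.94 and 7.17 in PS cerebra, against 6.19, 6.38 and 6.46 in MCT cerebra. The arrays did not overlap, and the difference of 0.77 (SE 0.111), 1.71-fold, had an adjusted p of 0.0239. Per1 was at 9.25, 9.03 and 9.02 in PS cerebra, against 8.49, 8.57 and 8.59 in MCT cerebra. These groups were separated as well, by 0.55 on average (SE 0.091), 1.46-fold, with an adjusted p of 0.0314. Noct was at 7.46, 7.54 and 7.63 in PS cerebra, against 7.17, 7.14 and 7.32 in MCT cerebra, a difference of 0.33 (SE 0.087, adjusted p = 0.0623). PS array 2, whose Xist was as low as in the MCT arrays, held Per1, Per2 and Noct above all MCT arrays.

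The other 5 genes overlapped between PS and MCT cerebra. Per3 was at 7.14, 6.80 and 7.12 in PS cerebra, against 6.87, 6.79 and 7 in MCT cerebra (difference 0.13, adjusted p = 0.471). Cry1 was at 6.37, 6.29 and 5.90 in PS cerebra, against 5.91, 5.98 and 6.01 in MCT cerebra, with PS array 3 below all MCT arrays (0.22, adjusted p = 0.291). Cry2 was at 9.16, 8.98 and 8.83 in PS cerebra, against 8.76, 8.77 and 8.84 in MCT cerebra (0.20, adjusted p = 0.225). PS array 1 was the highest of the 6 cerebra for 6 of the 8 genes. The activators lay within a narrow range. Clock was at 8.75, 8.89 and 8.59 in PS cerebra, against 8.71, 8.58 and 8.71 in MCT cerebra, with a difference of 0.08 (95% interval -0.15 to 0.31). Npas2 was at 9.95, 9.77 and 9.89 in PS cerebra, against 9.93, 9.81 and 9.87 in MCT cerebra, with equal means and a 95% interval of the difference from -0.19 to 0.19.

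Of the 8 genes, 2 rose in PS cerebra and 0 fell, where 1.83% of all clusters tested were called higher. In 3 of 8 every PS array lay above every MCT array, which held for 12.4% of all clusters. The median difference was 0.21, against -0.03 over all 12733 clusters, of whose calls 31.7% were higher in PS (41.9% after quantile normalization and 17.6% after centring each array on its median). Striatal markers moved with treatment: the mean of 10 measured markers was 6.75, 6.85 and 8.76 in PS arrays and 9.43, 9.60 and 9.44 in MCT arrays. With that mean as a covariate Per1 (0.42, SE 0.164, adjusted p = 0.467) and Per2 (0.85, SE 0.21, adjusted p = 0.373) no longer passed. Only 1 of all 12733 clusters was called in that run, against 734 in the main fit. Every PS array lay below every MCT array in the striatal mean, so this run cannot tell it from treatment. With Xist as a covariate Per2 passed (0.61, adjusted p = 0.0427) and Per1 did not (0.49, adjusted p = 0.0608). Choroid plexus markers averaged 4.62, 4.19 and 4.71 in PS cerebra and 5.96, 6.85 and 4.9 in MCT cerebra, thalamic markers 6.96, 6.9 and 7.1 in PS cerebra and 7.34, 8.13 and 7.21 in MCT cerebra, and 8 hypothalamic and pituitary markers 5.6, 5.17 and 7.32 in PS cerebra and 5.53, 5.71 and 5.15 in MCT cerebra. Neither Per1 nor Per2 passed without PS array 1 (adjusted p = 0.0873 for both), MCT array 1 (0.163 for Per1 and 0.14 for Per2) or MCT array 2 (0.126 and 0.109). Per1 did not without PS array 2 (0.0542), and without PS array 3 Cry1 passed too (0.36, adjusted p = 0.0412). Calls changed among all transcripts in these runs. They were 0 without PS array 1 or MCT array 1 and 2 without MCT array 2, against 734 with all 6 arrays. Without PS array 2 they were 145, and without PS array 3 they were 1557. The mean of 12 immediate early genes was 7.85, 8.49 and 7.78 in PS cerebra and 7.23, 7.40 and 7.47 in MCT cerebra, and that of the glucocorticoid-responsive genes 8.67, 8.55 and 8.78 in PS cerebra and 8.14, 8.23 and 8.16 in MCT cerebra.

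**Figure D2:**
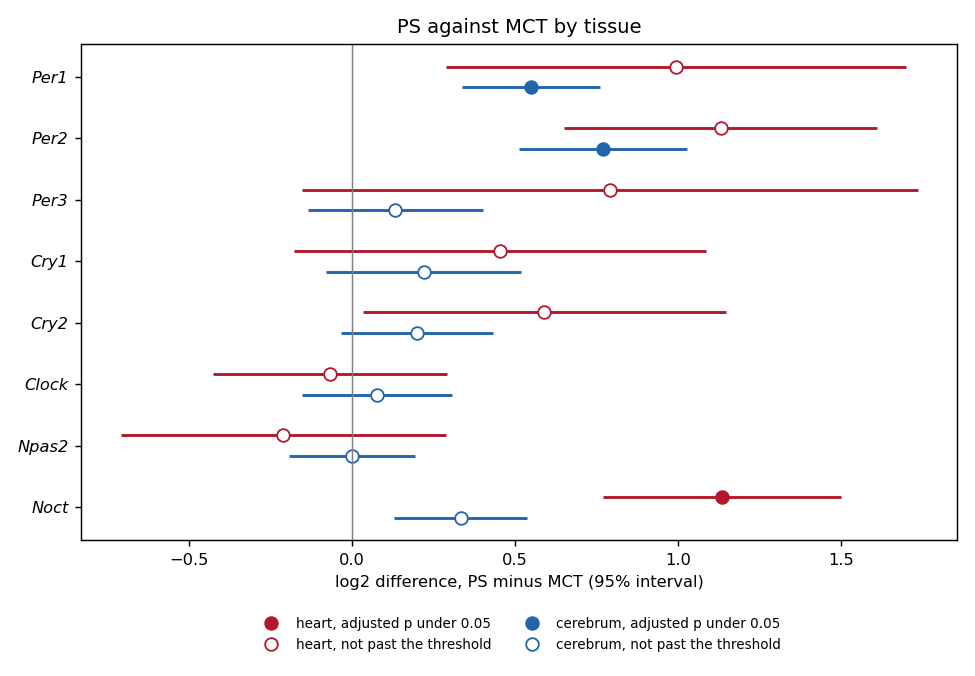
Log2 difference, PS minus MCT (x axis), of the 8 clock genes (y axis) in heart and cerebrum, with 95% intervals from limma; filled circles have an adjusted p under 0.05. Noct in heart (1.13) and Per1 (0.55) and Per2 (0.77) in cerebrum are filled, while the intervals of Clock and Npas2 include 0 in both tissues.

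Averaged over both tissues, Per1, Per2 and Noct rose in PS mice. The mean PS effect, estimated over all 12 arrays, was 0.95 for Per2 (SE 0.125, adjusted p = 0.00341), 0.73 for Noct (SE 0.092, adjusted p = 0.0033) and 0.77 for Per1 (SE 0.174, adjusted p = 0.0227). These correspond to 1.93-fold, 1.66-fold and 1.71-fold higher levels, and for each gene all 6 PS arrays lay above the MCT arrays of their tissue. Cry2 was 0.40 higher (adjusted p = 0.0744), Per3 0.46 (adjusted p = 0.188) and Cry1 0.34 (adjusted p = 0.169), none past the threshold. Clock differed by 0.005 (95% interval -0.20 to 0.21) and Npas2 by -0.11 (-0.37 to 0.16). Thus 3 of 8 rose and 0 fell, where 6.2% of all 12731 clusters were called higher. Per1 lost its call without MCT cerebrum 1, PS cerebrum 1, MCT cerebrum 2 or MCT heart 2, with adjusted p up to 0.0636, and without MCT heart 3 Per3 (0.68, adjusted p = 0.0108) and Cry2 (0.51, adjusted p = 0.00515) passed as well.

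Whether the PS effect differed between tissues was tested directly. The effect in heart minus that in cerebrum was positive for 6 of the 8 genes, where it was positive for 59% of all clusters. Of the 8 genes 0 passed, where 1.52% of all clusters did. An unadjusted p under 0.05 was found for 1 of 8, and for 2448 of all 12731 clusters. Among the 8 that gene was Noct, with 0.80 (SE 0.184, adjusted p = 0.0552). Noct passed without MCT heart 3 (adjusted p = 0.00904), without PS cerebrum 3 (0.0478) and with the replicate number as a block (0.0422). The differences of Per1 (0.44, SE 0.348), Per2 (0.36, SE 0.25) and Per3 (0.66, SE 0.471) did not pass the test, with adjusted p of 0.511, 0.455 and 0.47.

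Several of these genes varied more among hearts of a group than most transcripts did. The SD over the 3 MCT hearts was 0.917 for Per3, larger than for 99.8% of 12731 clusters, 0.677 for Per1 (98.9%), 0.52 for Cry2 (96.1%) and 0.424 for Per2 (90.9%), where the median cluster had 0.195. It was 0.382 for Cry1 (87.4%), 0.362 for Npas2 (85.2%), 0.246 for Noct (63.8%) and 0.194 for Clock (49.6%). In PS hearts, where the median cluster had 0.123, the SD was 0.3 for Per3 (89.9%), 0.176 for Per1 (69.1%), 0.101 for Cry2 (39.3%) and 0.11 for Per2 (43.5%). Cry1 varied more in PS hearts than in MCT hearts, with 0.485 (97.3%), and Npas2 had 0.284 (88.4%), Clock 0.204 (76.5%) and Noct 0.155 (62.5%). MCT heart 1 was the lowest of the 6 hearts for 5 of the 8 genes. Of 23 other clock pathway genes tested over both tissues, that array was the lowest heart for 14, the highest for 3 and neither for 6. Among the 14, Ciart, a repressor of the CLOCK complex, was at 7.23 on MCT heart 1, beside 8.46 and 8.9 on MCT hearts 2 and 3, on 1 cluster, and at 6.2, beside 8.24 and 8.26, on the other. Arntl, which peaks opposite to the Per genes, was highest there, at 6.37 in MCT heart 1 and 5.82 and 5.46 in MCT hearts 2 and 3. The share of all clusters with MCT heart 1 as the lowest heart was not counted, so these counts have no background. Other transcripts set this array apart too: it had the lowest heart mean of the endothelial (8.18), glucocorticoid-responsive (8.34) and cardiomyocyte (11.89) lists. Its mean of 5 adipocyte markers (5.88) was the highest of the hearts. The mean of 5 atrial markers was 5.92, 6.35 and 6.96 in PS hearts and 6.21, 6.41 and 7.35 in MCT hearts. Its members differed: Myl7, an atrial myosin light chain, was 4.16, 4.17 and 6.80 in PS hearts and 4.37, 5.08 and 8.53 in MCT hearts, while Nppa, the atrial natriuretic peptide gene, was 11.31, 12.31 and 10.71 in PS hearts and 11.34, 11.51 and 10.44 in MCT hearts. With the atrial mean as a covariate the PS difference was 1.2 for Noct (adjusted p = 0.0188) and 1.23 for Per2 (adjusted p = 0.0312). That run called 909 of all 12736 clusters, against 42 in the main fit.

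**Figure D3:**
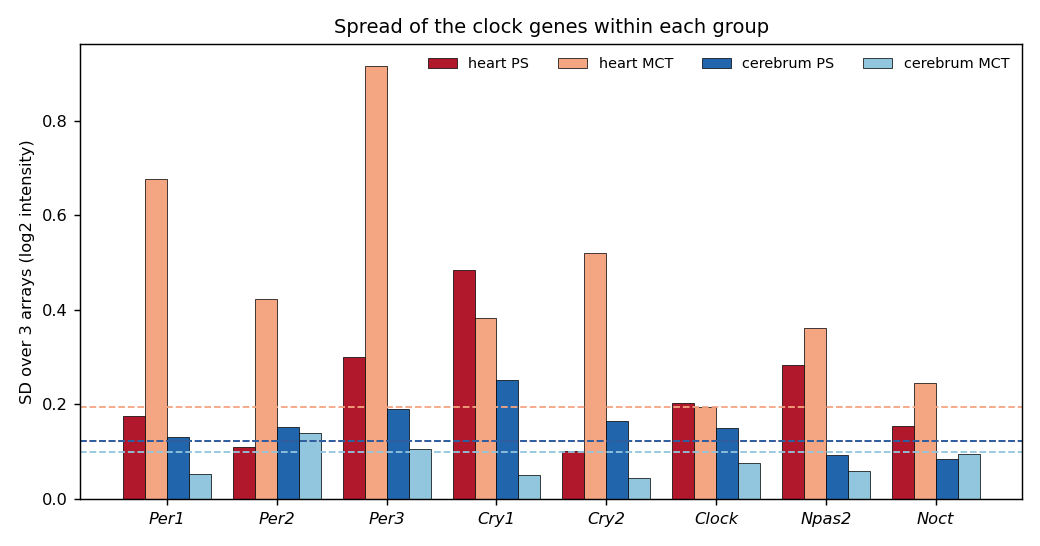
SD over the 3 arrays of a group (y axis, log2 intensity) for the 8 clock genes (x axis), with a dashed line at the median SD of all 12731 transcript clusters in each group; the lines of both PS groups coincide at 0.123. Per3, Per1 and Cry2 have their widest spread in MCT hearts, at 0.917, 0.677 and 0.52.

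Of 30 other clock pathway genes listed, 25 had a cluster of their own symbol. In heart 23 of them were tested, each by its cluster of highest mean. Of these 16 were higher and 7 lower in PS, where 57.9% of all clusters were higher, and 0 passed. Arntl was at 4.72, 5.71 and 5.02 in PS hearts, against 6.37, 5.82 and 5.46 in MCT hearts, with a lower mean in PS hearts, unlike the Per genes (-0.73, SE 0.299, adjusted p = 0.194). The lowest p-values among these genes in heart were those of Wee1, a clock-controlled cell cycle kinase (0.58, adjusted p = 0.138), and Ppargc1a, a coactivator of ROR receptors (0.61 and 0.42 on its 2 clusters, adjusted p = 0.137 and 0.17), followed by Bhlhe40 (0.72, adjusted p = 0.187). Hlf and Tef, which bind D-boxes, differed by 0.53 and 0.46, Ciart by 0.46 and 0.63, the repressor Nfil3 by 0.21 and Nr1d2, the second REV-ERB gene, by -0.08, none past the threshold.

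In cerebrum 24 were tested, and 15 were higher and 9 lower, where 45.2% of all clusters were higher. Of the 24, 0 rose, where 1.83% of all clusters were called higher, and 1 fell, where 3.93% were called lower. The gene that fell was Fbxl21, a subunit of a ubiquitin ligase for CRY proteins, at 6.58, 6.57 and 6.89 in PS cerebra against 7.22, 7.58 and 7.27 in MCT cerebra (-0.68, SE 0.132, adjusted p = 0.0382). Bhlhe40, an E-box repressor also known as Dec1, was at 9.73, 9.56 and 9.10 in PS cerebra, against 8.85, 8.72 and 8.82 in MCT cerebra. Its arrays did not overlap, and the difference was 0.67 (SE 0.156, adjusted p = 0.0518). Nfil3 differed by 0.46 (adjusted p = 0.124), Wee1 by 0.34 (adjusted p = 0.124), Hlf by 0.36 (adjusted p = 0.142) and Arntl by 0.34 (adjusted p = 0.235), while Tef (-0.11), Nr1d2 (-0.07) and Ciart (0.18 and 0.17) lay near 0. Averaged over both tissues 4 of 23 rose and 0 fell, where 6.2% of all clusters were called higher: Bhlhe40 by 0.69 (adjusted p = 0.0296), Wee1 by 0.46 (adjusted p = 0.0272), Csnk1e, the kinase that phosphorylates PER proteins, by 0.30 (adjusted p = 0.0437) and Ppargc1a by 0.37 and 0.40 on its 2 clusters (adjusted p = 0.0363 and 0.0322). The medians of these other genes were 0.22 in heart, 0.13 in cerebrum and 0.16 on average, against 0.06, -0.03 and 0.02 over all clusters.

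**Figure D4:**
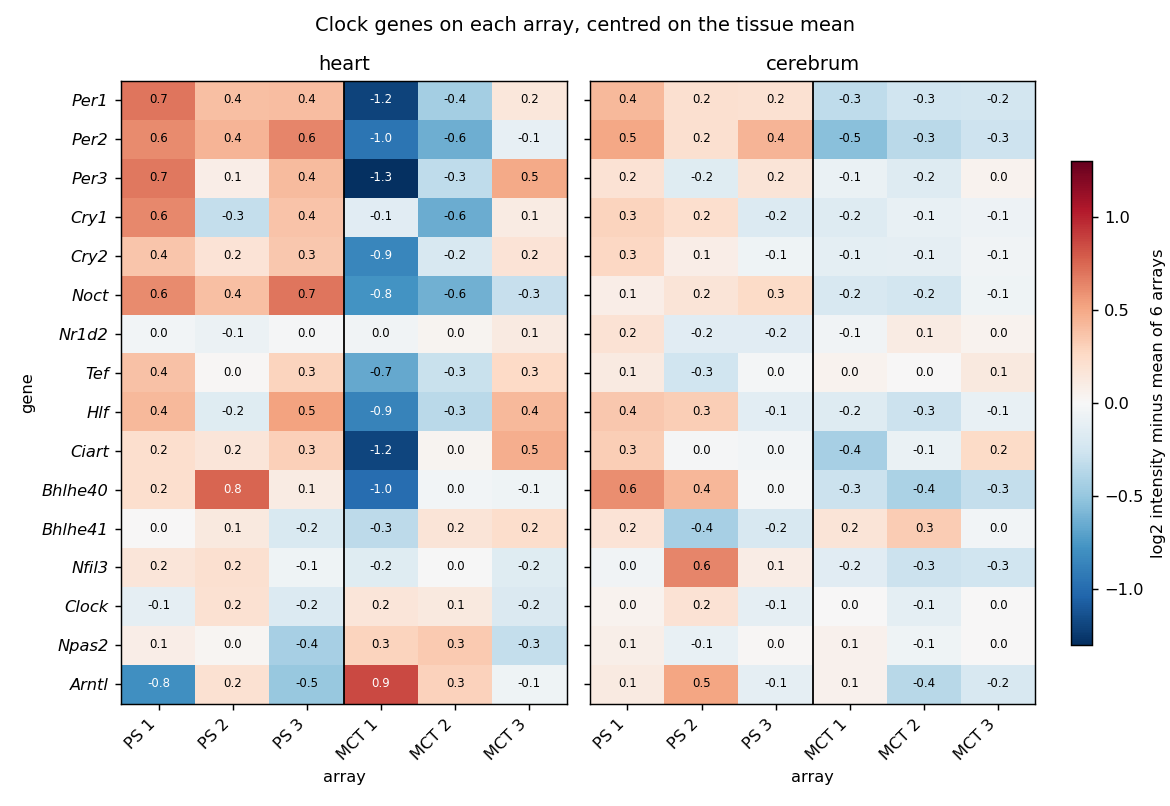
Log2 intensity minus the mean of the 6 arrays of a tissue (colour and printed value) for 16 clock genes (y axis) on each array (x axis), heart at the left and cerebrum at the right, with the cluster of higher mean where a gene has 2. MCT heart 1 is lowest for Per1 (-1.2) and Per3 (-1.34) and highest for Arntl (0.85), and Nr1d2 stays between -0.07 and 0.12 over the hearts.

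Between tissues, the activator Npas2 had the largest difference of the 8 genes in both treatments and was lower in heart. In MCT mice it averaged 7.10 ± 0.36 in heart and 9.87 ± 0.06 in cerebrum (SD, n = 3 each), a 6.84-fold lower level in heart (-2.77, limma adjusted p = 1.02e-06), and in PS mice 6.89 ± 0.28 in heart and 9.87 ± 0.09 in cerebrum, 7.91-fold lower (-2.98, limma adjusted p = 8.93e-07). Cry2 was lower in heart too, by 1.41 in MCT mice (limma adjusted p = 0.000498) and by 1.02 in PS mice (7.92e-05). Cry1 was lower in heart by 0.82 in MCT mice (adjusted p = 0.00309), and in PS mice it differed by -0.59 (adjusted p = 0.0596). Its MCT heart mean of 5.15 was under the filter of 5.23 for that comparison. Cry1 was thus tested through its MCT cerebrum mean of 5.97, and its heart signal was low. Noct was 0.99 higher in heart in PS mice (limma adjusted p = 7.34e-05) and differed by 0.19 in MCT mice (adjusted p = 0.253).

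The Per genes passed the test in neither treatment. Clock was 0.34 lower in heart in PS mice (adjusted p = 0.0481), a call that held in 7 of 16 alternatives, and differed by -0.19 in MCT mice (adjusted p = 0.197). In PS mice Per1 differed by 0.04 (95% interval -0.25 to 0.32), Per2 by -0.13 (-0.39 to 0.13) and Per3 by -0.19 (-0.59 to 0.20). In MCT mice Per1 (-0.41, adjusted p = 0.226), Per2 (-0.49, adjusted p = 0.0552) and Per3 (-0.85, adjusted p = 0.0706) had lower means in heart without passing. With the replicate number as a block, which pairs the MCT arrays of both tissues, Per2 (adjusted p = 0.0126) and Per3 (0.0152) passed, and without MCT heart 3 Per1 (-0.73, adjusted p = 0.00848), Per2 (-0.71) and Per3 (-1.29) passed. Leaving out MCT heart 3 gave calls for 10315 of 12732 clusters, against 9610 of 12734 with all arrays. After quantile normalization, which moved the median of all clusters from -0.07 to 0.08, Noct was 0.43 higher in MCT hearts (adjusted p = 0.0165). In MCT mice 0 of the 8 were higher and 3 lower in heart, where 35.2% of all clusters were called higher and 40.3% lower; in PS mice 1 was higher and 3 lower, where 38.3% were higher and 37.6% lower. Calls between tissues were thus common among all transcripts.

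**Figure D5:**
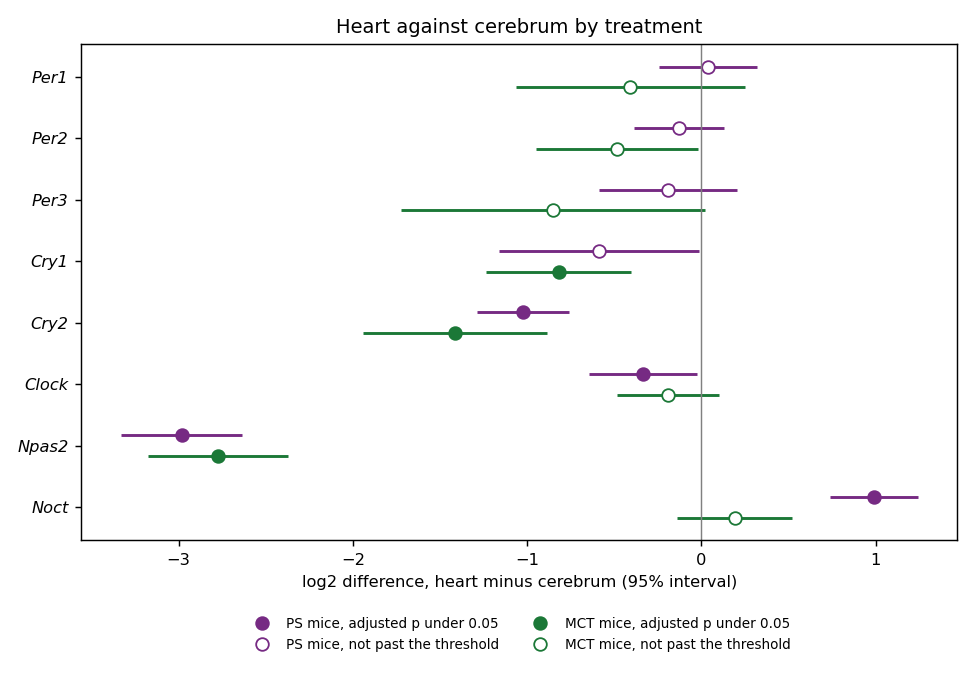
Log2 difference, heart minus cerebrum (x axis), of the 8 clock genes (y axis) in PS and MCT mice, with 95% intervals from limma; filled circles have an adjusted p under 0.05. Npas2 lies near -3 in both treatments, and Noct is at 0.99 in PS mice and 0.19 in MCT mice.

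Across the 4 groups, the order of the means differed by gene. Per1 was highest in PS hearts, followed by PS cerebra, MCT cerebra and MCT hearts, and among neighbours in that order only PS and MCT cerebra did not overlap. Per2 ran from PS cerebra over PS hearts and MCT cerebra to MCT hearts, and only PS hearts and MCT cerebra did not overlap. Noct ran from PS hearts over PS cerebra and MCT hearts to MCT cerebra, with a gap only between PS hearts and PS cerebra. Per3, Cry1 and Cry2 ran from PS cerebra over MCT cerebra and PS hearts to MCT hearts, and of their neighbours only MCT cerebra and PS hearts of Cry2 did not overlap. Clock ran from PS cerebra over MCT cerebra and MCT hearts to PS hearts, all neighbours overlapping. Npas2 had equal means in PS and MCT cerebra, above MCT hearts and then PS hearts, and only the step from cerebra to MCT hearts was free of overlap.

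The transcripts closest to the 3 genes called in a PS comparison were found by the root mean square difference of profiles centred on each tissue mean, over 12 arrays and 12731 clusters, as a description without a test. The nearest to Per1 were Fry (0.143), the corepressor Irf2bp2 (0.153) and the calcium channel gene Cacna1g (0.167), where the profile of Per1 itself had a root mean square of 0.496. Fry was at 9.13, 8.92 and 9.12 in PS hearts, against 7.60, 8.26 and 8.80 in MCT hearts. It thus shared with Per1 the wide MCT hearts with array 1 lowest. The nearest to Per2 were the X-linked histone demethylase gene Kdm5c (0.155), Per1 (0.171) and the ceramidase gene Acer2 (0.173), and those to Noct were Kdm5c (0.166), the transcription factor gene Klf13 (0.167) and the X-linked helicase gene Ddx3x (0.169). Kdm5c was at 7.78, 8.01 and 7.89 in PS hearts, against 6.39, 6.80 and 7.27 in MCT hearts, and at 7.61, 7.34 and 7.52 in PS cerebra, against 6.89, 6.95 and 7.28 in MCT cerebra. All arrays share their normalization, and likeness over 12 arrays that differ in treatment and Xist does not separate these.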

How the data were processed

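Biotin-labelled total RNA of heart and cerebrum was hybridised to Affymetrix whole-transcript arrays, as the labels' protocols state. The deposited table holds 1 value per transcript cluster and array, for 35556 clusters on 12 arrays. The submitters' processing notes name Affymetrix Expression Console as the authors' software, and its version, the summary method and the genome build were not given in the sources used here. Deposited values, from 1.9 to 13.11, were read as log2 intensity and used without further normalization, so a shift of all transcripts that scaling removed cannot be seen.

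Of the clusters, 21218 carry 1 gene symbol in the platform annotation, 1881 several and 12457 none; only the first were compared. Groups came from the labels, 3 arrays each, called biological replicates there. The labels do not say if equally numbered tissues share a mouse. PS heart 2 and PS cerebrum 2 differed in Xist (9.13 and 3.32) and in the Y-linked Eif2s3y (3.49 and 7.25), unlike tissues of 1 animal. The replicate block ties these 2 arrays in fits that hold both PS groups. Without a block, fits over both tissues treat every array as independent, also where tissues may share a mouse. Precision is limited by 3 arrays per group. Comparisons used limma 3.58.1 (lmFit, eBayes) in R 4.3.3 on clusters whose mean reached the 40th percentile of the arrays fitted, with Benjamini-Hochberg adjustment over all of them and a threshold of 0.05. All 8 clock genes passed that filter in every comparison. The fits were checked on simulated data with known changes. Deviations of equally numbered arrays correlated at 0.114, 0.102 and 0.287 between heart and cerebrum of MCT mice, where heart 1 correlated best with another number. In PS mice they correlated at 0.115, 0.098 and 0.054. The replicate block was fitted as an alternative in every comparison.

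Named were all listed clock genes, other clock genes past the threshold in a PS comparison, the 3 with the lowest p in each, a fixed set of loop genes, and the 3 nearest profiles of each called gene. Myl7 and Nppa were picked with their values in view. The clock genes, the lists and the tests were chosen with earlier results of these data known. Alternatives covered normalization, filters, transcripts tested, variance model, array weights, the replicate block, 1 fit over all arrays, covariates and leaving out each array.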

Additional observations from a re-analysis of the deposited data

How the results depend on the processing

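No difference past the threshold changed sign in any alternative run. Among those not past it, in PS against MCT cerebrum the striatal mean as a covariate turned Cry1 to -0.22, Cry2 to -0.06 and Clock to -0.17, and Xist as a covariate turned Per3 to -0.075; Clock in heart and on average, and Per1 and Per2 between tissues of PS mice, also turned in some alternatives. The count of clock genes past the threshold was 2 in PS against MCT cerebrum and became 1 over all transcript clusters, in 1 fit over 12 arrays and with Xist as a covariate, 4 with array weights, 0 with the striatal mean as a covariate and 0 with the replicate block, with 0 to 3 when leaving out 1 array. In PS against MCT heart it was 1 and became 0 after quantile normalization (Noct adjusted p = 0.0586) and over all clusters (0.0815), 2 with the replicate block (Per2 added) and with the atrial mean as a covariate, 3 in 1 fit over 12 arrays and 8 with array weights, with 0 to 5 when leaving out 1 array. Averaged over both tissues it was 3 and became 5 with array weights, with 2 to 5 when leaving out 1 array. For the effect in heart minus that in cerebrum it was 0 and became 1, Noct, with median centring, the filter at the 60th percentile, the trended variance, array weights and the replicate block, with 0 to 1 when leaving out 1 array. Between tissues it was 3 in MCT mice and became 4 after quantile normalization, 8 with array weights and 5 with the replicate block and in 1 fit over 12 arrays, with 3 to 6 when leaving out 1 array, and in PS mice it was 4, with 3 to 5. Calls over all clusters moved as well. Array weights called 3407 of 12733 clusters in PS against MCT cerebrum, against 734 in the main fit. They called 6987 of 12736 in heart, against 42, and 11652 of 12734 between tissues of MCT mice, against 9610. In 1 fit over 12 arrays these calls were 371, 1722 and 9902, and with the replicate block 0, 88 and 9709. The striatal mean gave 1 call and Xist 882 in cerebrum, and the atrial mean 909 in heart. The causes were not tested. The estimate of array weights stopped before convergence in some fits. With a filter at the 60th percentile Per2 and Cry1 were not tested in cerebrum or on average. Per2, Per3 and Cry1 were then not tested in heart or between tissues of MCT mice, nor Cry1 between tissues of PS mice. Under that filter the count was 2 in cerebrum, where Noct passed (adjusted p = 0.0488), 2 on average and 2 between tissues of MCT mice. Between treatments, correlations of equally numbered arrays were 0.032 to 0.122 in heart, where each array matched its own number best. In cerebrum they were -0.263 to 0.113, and PS arrays 2 and 3 did not match their own number best. The share of calls higher for the effect in heart minus that in cerebrum was 72.2%, and 85.4% after median centring. Low signal limits Cry1, whose heart values of 4.73 to 6.00 lie on both sides of the heart filter of 4.935 and of the filter of 5.232 between tissues of MCT mice.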

Other observations

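Nr1d1, which encodes REV-ERBα, and Dbp, a D-box activator, were measured only by transcript clusters annotated to 2 symbols, so each value belongs to both genes together and no test was run. The cluster of Sphk2 and Dbp was at 9.76, 9.79 and 10 in PS hearts, against 8.62, 9.45 and 9.94 in MCT hearts. It was at 9.5, 8.66 and 9.07 in PS cerebra, against 9.09, 9.41 and 9.31 in MCT cerebra. MCT heart 1 was thus the lowest heart on this cluster too, and the cerebra overlapped. The 2 clusters of Nr1d1 and Thra were at 9.09, 9.07 and 9.12 and at 10.04, 10.71 and 10.47 in PS hearts, against 8.88, 9.03 and 9.28 and 9.68, 10.04 and 10.28 in MCT hearts. Both overlapped between PS and MCT hearts. In cerebrum the first was at 10.75, 10.4 and 10.75 in PS arrays, against 10.74, 10.75 and 10.85 in MCT arrays, and overlapped. The second was at 10.56, 10.2 and 10.2 in PS cerebra, against 10.13, 10.09 and 10.17 in MCT cerebra. There every PS array lay above every MCT array, as for 12.4% of the clusters tested in cerebrum.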
